A study of Mus musculus with 288 samples.

Results

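The genes described here are 10 members of 3 protein families that respond to calcium or bind sugars at the cell surface: the S100 genes S100a6, S100a10, S100a11, S100g, S100a8 and S100a9, the annexin genes Anxa1, Anxa2 and Anxa5, and the galectin gene Lgals3. They were taken by name, with earlier results of these data known, from a count table of 24781 genes in single lung epithelial cells. All 10 had a row. The cells came from C57BL/6 mice aged 4 months with the genotype Scgb1a1-CreER;Rosa26-mTmG, shared by every sorted well. In these mice a recombinase that needs an inducing drug is driven by the promoter of Scgb1a1, the club cell secretoglobin, and recombined cells switch the fluorescent protein they make. The sort kept cells with the epithelial surface protein Epcam, without the leukocyte protein CD45 or the endothelial protein CD31, low in CD24 and carrying the Scgb1a1 lineage label.

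There were 286 sorted wells of 1 cell each and 2 negative control wells. A well was kept when its total exceeded 10 times that of the higher control, which held 234 counts, and 227 wells with 1259118 counts in all were kept. The kept wells were divided by 2 marker genes. Scgb3a1 wells (n = 74) had at least 1% of their counts from Scgb3a1, a secretoglobin of airway secretory cells. Sftpc wells (n = 63) had at least 1% from Sftpc, surfactant protein C of alveolar type 2 (AT2) cells. The remaining 90 wells are called other wells, and 0 wells passed both limits. No label names the animal of a cell, so all wells together are 1 sample. There is therefore no test between classes and no p-value. Levels are pooled CPM, in which all counts of a gene in a class are scaled by the class total, with exact 95% Poisson intervals, shares of wells have exact Clopper-Pearson intervals, ratios have exact conditional binomial intervals, and all of these cover counting error only. A gene is called higher or lower by size alone: a ratio of at least 2-fold with at least 20 counts in both classes together.

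Median totals were 6940.5 counts in Scgb3a1 wells, 3529 in Sftpc wells and 5406 in other wells. Shares of wells are therefore also given at equal depth, with wells of at least 3151 counts thinned to 3151. This kept 74 Scgb3a1, 44 Sftpc and 86 other wells. In Sftpc and other wells the shares at equal depth thus cover fewer wells as well as fewer counts. Markers other than the 2 that define the classes were checked next. Summed over the 6 club cell markers, the level was 306014 CPM in Scgb3a1 wells, 59690 CPM in Sftpc wells and 382498 CPM in other wells, and over the 7 AT2 markers other than Sftpc it was 5848, 54276 and 9639 CPM in the same order. The 5 goblet cell markers (Muc5b, Muc5ac, Tff2, Agr2 and Spdef) summed to 5218 CPM in Scgb3a1 wells, 20.8 CPM in Sftpc wells and 131 CPM in other wells. The 6 leukocyte markers were at 0 in all 227 kept wells. The thresholds cut the Scgb3a1 scale more closely than the Sftpc scale: Scgb3a1 took 1.01% of counts in the well just inside its limit and 0.876% in the well just outside, while for Sftpc these shares were 2.07% and 0.734%. The well just inside the Scgb3a1 limit held 1 count each of S100a6 and Lgals3, and the well just outside held 3 and 7 counts.

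S100 proteins are small calcium-binding proteins with EF-hand motifs that change the activity of the partners they bind. Annexins bind acidic phospholipids of membranes when calcium is present, and several pair with an S100 protein, the best known pair being annexin A2 with S100A10, an S100 protein that has lost calcium binding. Galectins bind beta-galactosides on glycoproteins. In the lung these families are known from membrane repair and secretion in the epithelium and, for S100A8 and S100A9, from neutrophils.

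Promoters of 4 members are shown here as the 250 bases before the RefSeq transcription start (build GRCm38.p6): S100a6, Lgals3 and Anxa1 because they were higher together in Scgb3a1 wells, and S100g because it was higher in Sftpc wells. They lie at chr3:90612644-90612893 (plus strand), chr14:47373610-47373859 (plus strand), chr19:20390672-20390921 (minus strand) and chrX:162964600-162964849 (minus strand). Each is written 5′ to 3′ on the strand of its gene. Capitals mark matches to an AP-1 motif (TGANTCA), the TATA box motif (TATAAA) or a C/EBP motif (TTNCNNNAA).
S100a6: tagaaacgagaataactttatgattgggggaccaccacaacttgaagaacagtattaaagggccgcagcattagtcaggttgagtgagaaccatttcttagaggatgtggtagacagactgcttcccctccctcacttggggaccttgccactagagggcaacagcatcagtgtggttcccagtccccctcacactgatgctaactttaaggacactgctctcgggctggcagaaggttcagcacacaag
Lgals3: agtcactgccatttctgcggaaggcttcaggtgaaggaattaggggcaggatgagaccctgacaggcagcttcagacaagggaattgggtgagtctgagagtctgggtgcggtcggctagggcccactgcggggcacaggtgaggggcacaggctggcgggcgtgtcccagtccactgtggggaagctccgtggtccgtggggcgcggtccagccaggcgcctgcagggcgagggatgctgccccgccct
Anxa1: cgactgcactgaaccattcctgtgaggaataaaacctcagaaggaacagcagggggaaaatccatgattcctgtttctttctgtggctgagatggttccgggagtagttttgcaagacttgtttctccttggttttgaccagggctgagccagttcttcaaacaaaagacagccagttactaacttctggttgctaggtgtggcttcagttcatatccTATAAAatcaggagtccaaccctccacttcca
S100g: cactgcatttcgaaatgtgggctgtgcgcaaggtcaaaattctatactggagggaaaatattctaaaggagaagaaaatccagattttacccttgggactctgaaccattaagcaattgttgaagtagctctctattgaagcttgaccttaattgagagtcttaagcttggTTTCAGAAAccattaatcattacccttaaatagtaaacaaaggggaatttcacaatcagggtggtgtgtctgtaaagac
Both strands were searched, also for a KLF motif (CACCC) and an NKX2-1 motif (CTCAAG), which are not capitalised. Of 32817 mouse promoters of the same length, 6.75% held the AP-1 motif, 12.4% the TATA box, 32.9% the C/EBP motif, 52% the KLF motif and 13.3% the NKX2-1 motif. The S100a6 window matched none of these letters. The Lgals3 window held 2 KLF matches, the Anxa1 window a TATA box starting 32 bases before the start, and the S100g window 1 C/EBP match that reads on both strands and starts 79 bases before the start, with 1 KLF match. Among the members not shown, S100a11 held 2 AP-1 matches and Anxa2 held 1, while S100a10 has no entry in the promoter table. The 3 genes that were higher together thus share no motif of this search.

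S100a6, S100a10, S100a11, S100a8 and S100a9 lie in the S100 cluster on mouse chromosome 3, where S100a6 ends 44.8 kb before S100a8 and S100a11 ends 28.8 kb before S100a10. Between S100a9 and S100a11 lie 2824.8 kb. The members in the cluster did not move as 1 block. S100a6 (chr3:90612882-90624181, plus strand) was 6.25-fold higher in Scgb3a1 wells than in other wells. S100a11 (chr3:93520488-93526287, plus strand) had a ratio of 1.00 between these classes, beside 4.50 for S100a10 (chr3:93555080-93564643, plus strand). S100a8 (chr3:90668978-90670035, plus strand), the next member after S100a6, had 0 counts in both classes and so gives no ratio. S100g lies apart on chromosome X (chrX:162961992-162964599, minus strand). Coordinates are those of GENCODE M21 on GRCm38, the assembly of mm10, and all 10 genes are protein coding.

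Scgb3a1 wells differed from other wells in 4 of the 7 members measured in that pair, all higher: S100a6, S100a10, Anxa1 and Lgals3. Over all 4536 genes measured in the pair, 8.13% were at least 2-fold higher and 9.24% at least 2-fold lower (17.4% either way). The median log2 ratio was 1.33 over the measured members and -0.02 over all measured genes. In Sftpc wells against other wells, 2 of 8 measured members were higher (S100g and S100a10) and 3 were lower (S100a6, S100a11 and Anxa1), beside 17.4% higher and 9.68% lower of 3854 genes (27.1% either way). In Scgb3a1 wells against Sftpc wells, 4 of 8 were higher (S100a6, S100a11, Anxa1 and Lgals3) and 1 was lower (S100g), beside 13.2% higher and 19.7% lower of 3834 genes (32.9% either way). The 3 pairs share classes, so their values are not independent. The members were chosen with earlier results of these data known, so the shares over all genes give scale and are not an independent comparison. Levels are compared between classes and not between genes, since the counts were not scaled by length.

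**Figure D1:**
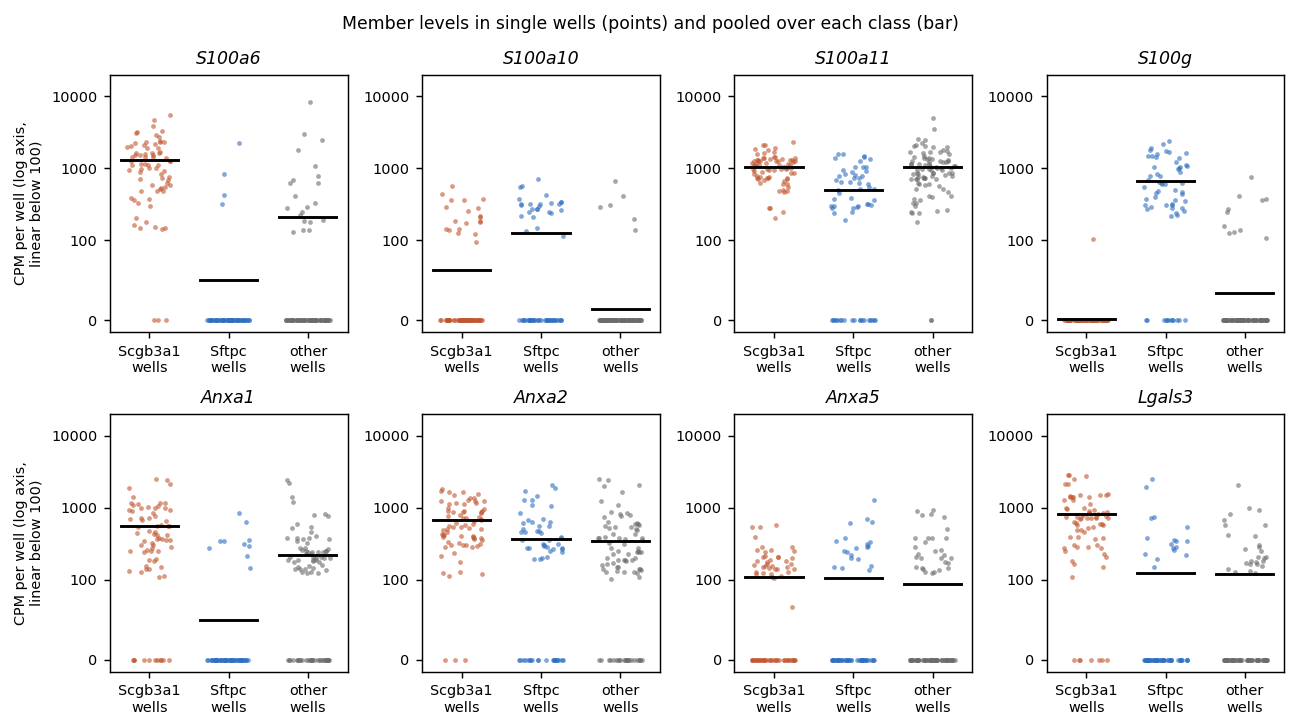
CPM of 8 members in each kept well (points, 1 per well; log axis, linear below 100 CPM) and pooled CPM of each class (black bar), for Scgb3a1 wells, Sftpc wells and other wells. Nearly all Scgb3a1 wells have S100a6 and Lgals3 above 0, most Sftpc wells have S100g above 0, and S100a11 is above 0 in nearly all Scgb3a1 and other wells.

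S100a6, or calcyclin, a calcium sensor of epithelial and mesenchymal cells, was the member that separated Scgb3a1 wells most widely from Sftpc wells among those higher there. Its level was 1323 CPM (interval 1225 to 1426, 679 counts) in Scgb3a1 wells, 49.9 CPM (25.8 to 87.1, 12 counts) in Sftpc wells and 212 CPM (174 to 256, 107 counts) in other wells. Per well, the lowest, median and highest levels were 0, 1125 and 5488 CPM in Scgb3a1 wells, 0, 0 and 2234 CPM in Sftpc wells and 0, 0 and 8243 CPM in other wells. The classes overlapped at both ends, and the highest single well of the data was an other well. S100a6 was detected in 95.9% of Scgb3a1 wells (interval 88.6 to 99.2%), 6.35% of Sftpc wells (1.76 to 15.5%) and 23.3% of other wells (15.1 to 33.4%). At equal depth these shares were 87.8%, 2.27% and 14.0% in the same order, so the order of the classes stayed. The pooled ratio was 26.5-fold between Scgb3a1 and Sftpc wells (interval 15.1 to 51.6) and 6.25-fold between Scgb3a1 and other wells (5.09 to 7.73), and between Sftpc and other wells it was -2.09 on the log2 scale (-3.08 to -1.22).

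Counts of S100a6 were spread over most Scgb3a1 wells and concentrated in few wells elsewhere. The 5 wells with most counts held 20.2% of the S100a6 counts of Scgb3a1 wells, all of those of Sftpc wells and 72.0% of those of other wells. Well 217 alone held 7 of the 12 counts of Sftpc wells, and well 70 held 44 of the 107 counts of other wells. With a total of 3133 counts, well 217 was not among the wells thinned to equal depth. Over bands of the Scgb3a1 share, S100a6 was at 189 CPM in the 117 wells without Scgb3a1 and 73.1 CPM in the 36 wells below 1%. It was at 993 CPM in the 17 wells from 1 to 3%, at 1591 CPM in the 34 wells from 3 to 6% and at 1191 CPM in the 23 wells above that. The interval was 820 to 1192 CPM in the band from 1 to 3%, 1431 to 1764 CPM in that from 3 to 6% and 1033 to 1366 CPM above. The pooled level was thus highest in the middle one of these bands. These intervals leave out variation between wells, so they do not rank the bands. Over all Scgb3a1 wells the level per well had a mean of 1325 CPM and a standard deviation of 1084 CPM. The edge at 1% is the limit of the class itself.

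Lgals3 (chr14:47367751-47386160, plus strand) encodes galectin-3, the galectin with a collagen-like tail that lets it form multimers, found in the cytoplasm and secreted at the apical side of epithelia. It was at 818 CPM (742 to 901, 420 counts) in Scgb3a1 wells, 125 CPM (84.1 to 178, 30 counts) in Sftpc wells and 119 CPM (90.6 to 153, 60 counts) in other wells. The lowest, median and highest wells were at 0, 711 and 2857 CPM among Scgb3a1 wells, 0, 0 and 2517 CPM among Sftpc wells and 0, 0 and 2061 CPM among other wells. Pooled Lgals3 was not called between Sftpc and other wells (log2 ratio 0.07, interval -0.61 to 0.73), and it was 6.57-fold (4.53 to 9.85) and 6.89-fold (5.25 to 9.19) higher in Scgb3a1 wells than in Sftpc and other wells. It was detected in 90.5% of Scgb3a1 wells, 27.0% of Sftpc wells and 30.0% of other wells, and at equal depth in 79.7%, 6.82% and 18.6%. Wells 217 and 224 held 6 counts each of the 30 in Sftpc wells. Their totals of 3133 and 2384 counts were too low for thinning, so the share at equal depth leaves them out.

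The Sftpc level of Lgals3 differed between stretches of the table. The labels name no plates, and the 288 columns were taken as 3 successive sets of 96. In sets 1, 2 and 3 Lgals3 was at 29.8, 29.6 and 193 CPM in Sftpc wells (1, 2 and 27 counts) and at 170, 72.6 and 118 CPM in other wells (34, 16 and 10 counts). Sftpc over other wells was -2.51 on the log2 scale within set 1 and 0.72 within set 3, in opposite directions, and -2.003 without set 3. Scgb3a1 over Sftpc wells was 4.67, 4.93 and 1.39 within sets 1, 2 and 3, and Scgb3a1 over other wells was 2.16, 3.64 and 2.11.

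S100a6 and Lgals3 levels also correlated within the class. Both genes were detected in 67 of 74 Scgb3a1 wells, 3 of 63 Sftpc wells and 11 of 90 other wells. These joint shares were 90.5%, 4.76% and 12.2%, beside products of the single shares of 86.9%, 1.71% and 7.00%. In Scgb3a1 wells the joint share was thus close to what the single shares give. Across the 74 Scgb3a1 wells the CPM of the 2 genes correlated with Spearman's rho of 0.61, and across the 90 other wells with 0.35. In Scgb3a1 wells S100a6 also correlated with Bpifa1, a secreted airway defence protein (0.61), Krt19, a keratin of simple epithelia (0.57), Anxa1 (0.55) and Anxa2 (0.49), and with Scgb1a1 at -0.51. Its rho with the Scgb3a1 level itself was 0.14 and with the well total 0.09. These are descriptions of wells that share 1 sample, and Scgb1a1 enters every total it is divided by.

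Over all 227 kept wells, the genes most like S100a6 by Spearman's rho among 2298 genes detected in at least 20% of wells were Reg3g, an antibacterial lectin (0.75), Lgals3 (0.74) and Bpifb1 (0.73). The genes most like Lgals3 were S100a6 (0.74), Reg3g (0.66) and Bpifb1 (0.65). Goblet cell markers were also highest in Scgb3a1 wells as a class, and their correlation with either gene over wells is not given here. All 5 were detected in Scgb3a1 wells, with a summed level of 207 to 13392 CPM per well. In Sftpc wells 3 of 5 were detected, at 0 to 545 CPM, and in other wells 4 of 5, at 0 to 4034 CPM. The number detected also depends on the class totals of 513183, 240677 and 505258 counts. Well 70, the other well with most S100a6 and Lgals3 counts, had 0 goblet marker counts. Of the other wells ranked second, well 229 for S100a6 (15 counts) also had 0, and well 24 for Lgals3 (7 counts) had 29. Well 96, the Scgb3a1 well with most counts of both genes, had 99. Muc5ac was at 0 in Sftpc and other wells, and Agr2 was at 0 in Sftpc wells. The basal cell keratins Krt5 and Krt14 were at 0 in all 3 classes, with 136 counts of the 6 basal markers in Scgb3a1 wells, 107 of them from Krt15, against 1 in Sftpc wells and 8 in other wells. The part of these markers in the levels of S100a6 and Lgals3 was not tested.

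Anxa1 (chr19:20373428-20390944, minus strand) encodes annexin A1, a membrane-binding protein that is secreted as a signal ending inflammation. It was at 557 CPM (495 to 626, 286 counts) in Scgb3a1 wells, 49.9 CPM (25.8 to 87.1, 12 counts) in Sftpc wells and 222 CPM (183 to 267, 112 counts) in other wells. The lowest, median and highest wells were at 0, 371 and 2486 CPM in Scgb3a1 wells, 0, 0 and 839 CPM in Sftpc wells and 0, 167 and 2435 CPM in other wells. Anxa1 was thus graded over the 3 classes, highest in Scgb3a1 wells and lowest in Sftpc wells, with ranges that overlap. It was 11.2-fold higher in Scgb3a1 than in Sftpc wells (6.30 to 21.9), 2.51-fold higher in Scgb3a1 than in other wells (2.01 to 3.16), and at -2.15 on the log2 scale in Sftpc against other wells (-3.15 to -1.29). Detection was 85.1%, 15.9% and 63.3% in Scgb3a1, Sftpc and other wells, and 70.3%, 6.82% and 47.7% at equal depth. The difference between Scgb3a1 and other wells was near the limit of a call: it was 0.68 on the log2 scale without set 2, 0.81 within set 1 and 0.52 within set 3. In Sftpc wells 11 of the 12 Anxa1 counts lay in set 3, and without that set Sftpc over other wells was at -4.30. Its most similar genes were S100a6 (rho 0.59), the keratin Krt8 (0.59) and Ltf, lactoferrin (0.54).

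Anxa2 (chr9:69453620-69491795, plus strand) encodes annexin A2, which links membranes to actin and works in exocytosis, and S100a10 encodes its partner. Over all kept wells Anxa2 passed 2-fold in none of the 3 pairs, though it did for Scgb3a1 over other wells without a few wells named below. It was at 663 CPM (594 to 737) in Scgb3a1 wells, 370 CPM (297 to 455) in Sftpc wells and 344 CPM (295 to 400) in other wells, with medians per well of 549, 276 and 199 CPM and highest wells of 1829, 2081 and 2468 CPM. The log2 ratio was 0.94 (0.68 to 1.22) for Scgb3a1 over other wells and 0.84 (0.50 to 1.20) for Scgb3a1 over Sftpc wells, both short of 2-fold. For Sftpc over other wells it was 0.10 (-0.28 to 0.48). S100a10 followed another order. It was at 62.4 CPM (42.7 to 88.0, 32 counts) in Scgb3a1 wells, 125 CPM (84.1 to 178, 30 counts) in Sftpc wells and 13.9 CPM (5.57 to 28.5, 7 counts) in other wells.

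S100a10 was thus 9.00-fold higher in Sftpc wells than in other wells (3.87 to 24.3) and 4.50-fold higher in Scgb3a1 wells than in other wells (1.95 to 12.1), while Scgb3a1 wells against Sftpc wells were at a ratio of 0.50 (0.29 to 0.85), at the edge of a call. The size of the first ratio depended on the set of columns: S100a10 in sets 1, 2 and 3 was at 59.6, 133 and 136 CPM in Sftpc wells and at 10.0, 0 and 58.8 CPM in other wells. Within set 3 the log2 ratio was 1.21 on 24 counts, against 3.17 pooled, and it was 2.30 without set 2. Scgb3a1 over other wells was 1.56 without set 2 and 3.69 without set 3. No well held more than 4 counts of it. It was detected in 27.0% of Scgb3a1 wells, 41.3% of Sftpc wells and 6.67% of other wells, and in 17.6%, 31.8% and 3.49% at equal depth. Both partners were found together in 20 of 74 Scgb3a1 wells, 20 of 63 Sftpc wells and 5 of 90 other wells. Every Scgb3a1 well with S100a10 also had Anxa2, while 6 Sftpc wells had S100a10 alone. The joint shares of 27.0%, 31.7% and 5.56% were close to the products of the single shares, 25.9%, 27.5% and 4.96%. Within each class the pooled counts held 10.6 Anxa2 counts per S100a10 count in Scgb3a1 wells, 2.97 in Sftpc wells and 24.9 in other wells.

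**Figure D2:**
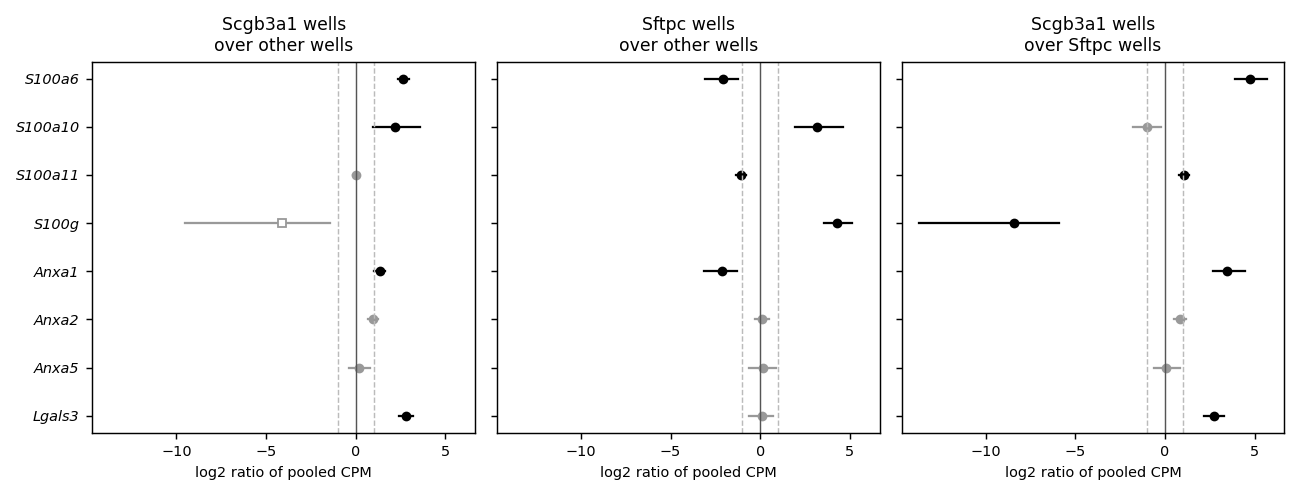
Log2 ratio of pooled CPM for 8 members in 3 pairs of classes (points) with exact 95% intervals of counting error (lines); black marks a difference called at 2-fold, grey none, the open square a gene under 20 counts, and dashed lines stand at 2-fold. S100a6, Anxa1 and Lgals3 lie to the right for Scgb3a1 over Sftpc wells, and S100g lies to the right for Sftpc over other wells, at 4.29.

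S100a11, or calgizzarin, a partner of annexin A1 in the cornified layer of keratinocytes, was the most widely detected member. It was found in 100% of Scgb3a1 wells (95.1 to 100%), 69.8% of Sftpc wells (57.0 to 80.8%) and 97.8% of other wells (92.2 to 99.7%), and at equal depth in 91.9%, 56.8% and 91.9%. Its level was 1046 CPM (960 to 1139) in Scgb3a1 wells, 499 CPM (413 to 596) in Sftpc wells and 1043 CPM (956 to 1136) in other wells. The lowest, median and highest wells were at 207, 1042 and 2320 CPM in Scgb3a1 wells, 0, 365 and 1591 CPM in Sftpc wells and 0, 954 and 5060 CPM in other wells. S100a11 was thus lower in Sftpc wells, with a log2 ratio of 0.00 (-0.17 to 0.18) between Scgb3a1 and other wells. Sftpc over other wells stood at -1.06 (-1.36 to -0.78), and Scgb3a1 wells were 2.10-fold above Sftpc wells (1.72 to 2.58). Both calls sat at the limit. Among wells above 5000 counts they were -0.55 and 0.55 on the log2 scale, and within set 1 they were -0.43 and 0.38. The mouse genome holds 5 processed pseudogenes at least 90% identical to S100a11 over at least 200 bases, none of them in the table, so its counts are uncertain. Its most similar genes were Krt8 (rho 0.49), Gsto1 (0.46) and Krt19 (0.44).

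S100g, or calbindin-D9k, a calcium buffer known from intestine, kidney and placenta, marked the Sftpc wells. It was at 1.95 CPM (0.05 to 10.9, 1 count) in Scgb3a1 wells, 656 CPM (558 to 767, 158 counts) in Sftpc wells and 33.6 CPM (19.6 to 53.9, 17 counts) in other wells. Among Sftpc wells the lowest, median and highest levels were 0, 491 and 2428 CPM, while the medians of Scgb3a1 and other wells were 0 and their highest wells stood at 106 and 752 CPM. It was detected in 1.35% of Scgb3a1 wells, 81.0% of Sftpc wells (69.1 to 89.8%) and 12.2% of other wells, and at equal depth in 0%, 79.5% and 8.14%, so detection was highest in the class of lowest depth. S100g was 19.5-fold higher in Sftpc than in other wells (11.8 to 34.3). In Scgb3a1 against Sftpc wells it was at -8.40 on the log2 scale (-13.7 to -5.90). Scgb3a1 against other wells held 18 counts together, too few for a call, with a log2 ratio of -4.11 (-9.50 to -1.44).

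The rule for Sftpc wells used Sftpc, and pooled S100g rose over bands of the Sftpc share, with the limit of the class at 1%. It was at 9.43 CPM in the 87 wells without Sftpc, 26.6 CPM in 77 wells below 1%, 210 CPM in 6 wells from 1 to 10%, 725 CPM in 50 wells from 10 to 20% and 840 CPM in 7 wells above that. Within the 63 Sftpc wells the rho of S100g with Sftpc was 0.33, and with the well total -0.09. Over all kept wells the genes most like S100g were Lyz1, a lysozyme (0.75), Lamp3, a lamellar body protein (0.75), and Napsa, the protease that matures surfactant protein B (0.74), of which Napsa and Lamp3 are on the AT2 marker list.

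Anxa5 (chr3:36448923-36475894, minus strand), annexin A5, the phosphatidylserine-binding annexin used to stain dying cells, was the measured member whose 3 ratios all stayed nearest to 1. It was at 109 CPM (82.4 to 142, 56 counts) in Scgb3a1 wells, 104 CPM (67.2 to 153, 25 counts) in Sftpc wells and 95.0 CPM (70.0 to 126, 48 counts) in other wells. The 3 log2 ratios lay at 0.20 (-0.38 to 0.79) for Scgb3a1 over other wells, 0.13 (-0.63 to 0.86) for Sftpc over other wells and 0.07 (-0.63 to 0.81) for Scgb3a1 over Sftpc wells. These intervals reach less than 2-fold in either direction. The share of wells with a count was 52.7%, 31.7% and 33.3% in Scgb3a1, Sftpc and other wells, and 31.1%, 27.3% and 23.3% at equal depth. Among the genes detected in at least 20% of kept wells, its highest rho was 0.28, with Tjp3.

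Per well, the median number of the 10 members detected was 6 in Scgb3a1 wells, 3 in Sftpc wells and 3 in other wells, with ranges of 2 to 7, 1 to 7 and 1 to 7. This number was not taken at equal depth. The median number of all genes detected was 1763.5, 1299 and 1517.5 in the same order. The members together made up 0.458% of all counts in Scgb3a1 wells, 0.198% in Sftpc wells and 0.208% in other wells.

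A few other wells carried most of the S100a6 of their class. Of the 90 other wells, 8 held at least 3 counts of the 8 ciliated cell markers, among them Foxj1, the master regulator of motile cilia, and Tppp3, and these are called ciliated-marker wells. In them S100a6 was at 1607 CPM (1248 to 2038, 68 counts), against 84.2 CPM (59.9 to 115, 39 counts) in the remaining 82 other wells. Anxa1 stood at 827 CPM (576 to 1151) in ciliated-marker wells and 166 CPM (131 to 208) in the remaining wells. Anxa2 stood at 1276 CPM (959 to 1665) and 259 CPM (215 to 310), Anxa5 at 284 CPM (147 to 495) and 77.8 CPM (54.5 to 108), and Lgals3 at 402 CPM (234 to 643) and 92.9 CPM (67.2 to 125), in the same order. S100a11 differed less, with 1867 CPM (1478 to 2327) against 968 CPM (880 to 1062), and S100g had 0 counts in ciliated-marker wells against 17 in the remaining wells. The split was not part of the rule for the classes, and it rests on 8 wells. Among these 8 wells S100a6 ranged from 0 to 44 counts with a median of 5, and 6 wells had a count. The 1 ciliated-marker well among Scgb3a1 wells had 1 count of S100a6.

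**Figure D3:**
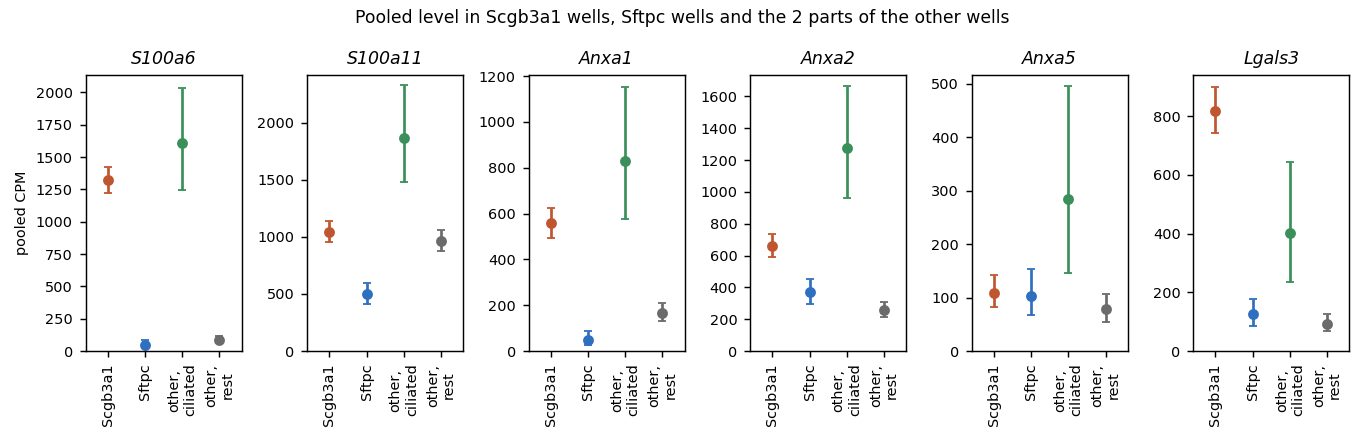
Pooled CPM (linear axes from 0, 1 scale per panel) of 6 members in Scgb3a1 wells, Sftpc wells, the 8 ciliated-marker wells and the remaining 82 other wells, with exact 95% Poisson intervals. In ciliated-marker wells S100a6, Anxa1, Anxa2 and Lgals3 lie above the remaining other wells. For S100a6 their level is 1607 CPM, against 1323 CPM in Scgb3a1 wells. Well 70 held 44 of these 68 S100a6 counts, and without it the level was 649 CPM (416 to 966).

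Well 70 contributed much of this split. It held 4 ciliated-marker counts, all from Tppp3, with Foxj1 at 0, and of its counts 6.59% came from Scgb1a1, against a median of 31.6% in other wells. It had 44 counts of S100a6 (8243 CPM), 19 of S100a11, 13 each of Anxa1 and Anxa2, 11 of Lgals3 and 4 of Anxa5. Among genes with at least 10 counts in the well, Ly6g6c, S100a6, Lgals3, Krtap17-1 and Anxa1 had the 5 highest levels relative to the remaining 89 other wells, from 225-fold for Ly6g6c to 12.3-fold for Anxa1. These genes were named after their values were seen. Without well 70 the 7 ciliated-marker wells still had S100a6 at 649 CPM (416 to 966), Anxa1 at 595 CPM (373 to 901), Anxa2 at 1109 CPM (796 to 1505) and S100a11 at 1623 CPM (1239 to 2089). Lgals3 stood at 162 CPM (59.6 to 353) there, an interval that includes the level of the wells without ciliated markers.

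Leaving out all wells with at least 3 ciliated-marker counts, which were 1 Scgb3a1 well, 2 Sftpc wells and the 8 other wells, moved S100a6 in Sftpc over other wells to -0.72 on the log2 scale, no longer 2-fold, and in Scgb3a1 over other wells to 3.99. Leaving out well 70 alone gave -1.34 and 3.39. Lower S100a6 in Sftpc wells than in other wells thus rested on these wells, while the difference between Scgb3a1 and other wells was larger without them. For Anxa1 leaving out the ciliated-marker wells gave 1.75 in Scgb3a1 over other wells. Anxa2, short of 2-fold over all kept wells, then stood at 660 CPM in Scgb3a1 wells and 259 CPM in other wells, past 2-fold. Without well 70 alone Anxa2 was at 663 and 322 CPM, also past 2-fold.

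S100a6 in other wells also differed between the 3 sets of columns. In Scgb3a1 wells S100a6 was at 1253, 1425 and 973 CPM in sets 1, 2 and 3 (38, 31 and 5 wells). In Sftpc wells it was at 0, 0 and 85.9 CPM (6, 17 and 40 wells), and in other wells at 280, 36.3 and 505 CPM (38, 33 and 19 wells). Within sets, S100a6 in Scgb3a1 over other wells was 2.16, 5.29 and 0.95 on the log2 scale, so set 3, with 5 Scgb3a1 wells and 5 of the 8 ciliated-marker wells among its 19 other wells, was short of 2-fold, and without set 2 the value was 1.82. Over Sftpc wells the value within set 3 was 3.50, and within sets 1 and 2, where Sftpc wells had 0 counts, it was 3.81 and 5.00 with 3 counts in their place. Anxa2 in Scgb3a1 over other wells was -0.04 within set 3. S100g in Sftpc wells was at 566, 548 and 731 CPM in sets 1, 2 and 3, and its log2 ratio to other wells was 3.59 within set 2 and 5.96 within set 3. What the sets stand for was not tested.

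The pair S100a8 and S100a9, calgranulins A and B, form calprotectin, an abundant cytosolic protein of neutrophils that binds zinc and manganese and restrains microbes. Each had 0 counts in all 227 kept wells, and the limit of 3 that a count of 0 allows is 1.32% of kept wells with a count, or 2.38 CPM. These limits cover counting error only, and a cell that expressed the genes could still give 0 counts at these totals. Both genes were found in 2 of the 286 sorted wells, both among the 59 wells of lower total. Well 263, with a total of 463 counts, held 24 of S100a8 (5.18% of its counts, interval 3.35 to 7.61%) and 19 of S100a9 (4.10%, 2.49 to 6.33%). Well 278, with a total of 519 counts, held 30 of S100a8 (5.78%, 3.93 to 8.15%) and 39 of S100a9 (7.51%, 5.40 to 10.1%). No well held 1 of the 2 genes without the other, and both control wells held 0.

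Leukocyte markers stood in the same 2 wells. The 6 markers (Ptprc, Cd52, Laptm5, Tyrobp, Fcer1g and Coro1a) had 10 counts there, with 5 of the 6 detected, and 0 counts in the other 57 wells of lower total and in the 2 controls. Ptprc, which encodes the CD45 protein that the sort excluded, had 2 counts in well 263 and 1 in well 278. Of the 12 neutrophil markers 4 were detected, with 10 counts: Il1b had 3 and 2 counts in wells 263 and 278, Cxcr2 had 1 in well 263, and the granule proteases Mmp8 and Mmp9 had 2 each in well 278. The 9 macrophage markers were at 0. Scgb1a1 had 2 counts in well 263 and 0 in well 278, and Sftpc had 1 in each. S100a11 had 3 counts in both wells, and S100a6 had 3 and 1. Ltf, on the neutrophil list, made up 900 of the 907 counts of that list in Scgb3a1 wells, and airway epithelium also makes it.

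**Figure D4:**
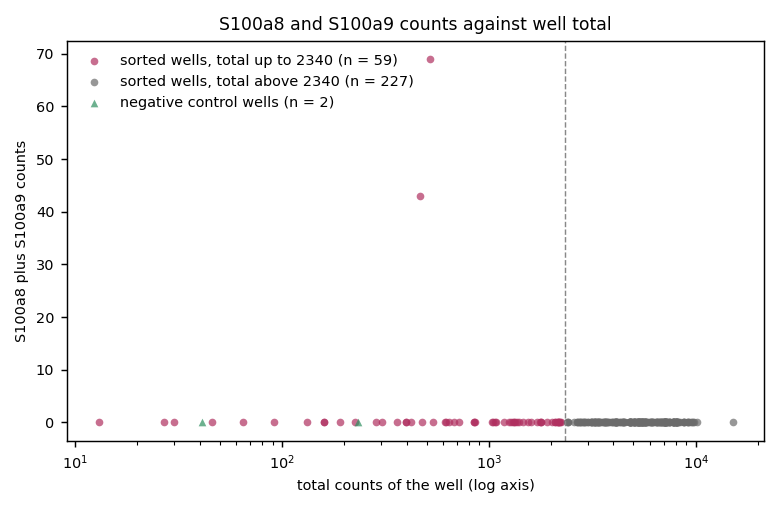
Summed S100a8 and S100a9 counts (linear axis) against the total counts of each well (log axis) for sorted wells below and above the total that a kept well needed (dashed line) and the 2 negative controls. Only 2 wells, with 43 and 69 counts, lie above 0, both left of the dashed line.

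The table holds 28 other genes listed by name under the 3 families, in a list also chosen with earlier results known. They include S100pbp, which encodes a binding protein and not an S100 protein, and which had too few counts for a call in any pair. Of the 12 measured in Scgb3a1 wells against other wells, 5 were higher (Anxa8, Lgals9, S100a14, Anxa3 and S100a13) and 0 were lower, beside 8.13% higher and 9.24% lower over all measured genes. The median log2 ratio was 0.72 over these 12 genes and -0.02 over all measured genes. Anxa8 was at 226 CPM (116 counts) in Scgb3a1 wells, 0 CPM in Sftpc wells and 15.8 CPM (8 counts) in other wells, which is at least 18.1-fold higher than in Sftpc wells with a floor of 3 counts over that class, and 14.3-fold higher (7.01 to 33.9) than in other wells. It was detected in 64.9% of Scgb3a1 wells. Lgals9, a tandem-repeat galectin, was at 68.2, 49.9 and 5.94 CPM in Scgb3a1, Sftpc and other wells, with a ratio of 11.5 between Scgb3a1 and other wells (3.62 to 58.4) that rests on 3 counts in other wells. S100a14 was at 60.4, 12.5 and 7.92 CPM, S100a13, which takes part in export of proteins without a signal peptide, at 148, 29.1 and 61.4 CPM, and Anxa3 at 247, 116 and 87.1 CPM in the same order.

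In Sftpc wells against other wells, 1 of the 8 measured of these genes was higher, Anxa6, and 1 was lower, S100a13, beside 17.4% higher and 9.68% lower over all measured genes. Anxa6, the annexin with a doubled core, was at 56.5 CPM in Scgb3a1 wells, 216 CPM (161 to 283) in Sftpc wells and 59.4 CPM in other wells, 3.64-fold higher in Sftpc than in other wells (2.28 to 5.91). S100a13 was at -1.08 (-2.51 to 0.13), an interval that includes no difference. Between Scgb3a1 and Sftpc wells, 6 of 11 were higher (Anxa3, Anxa7, Anxa8, S100a1, S100a13 and S100a14) and 2 were lower, Anxa4 at -1.14 and Anxa6 at -1.93, beside 13.2% and 19.7% over all measured genes. Lgalsl, a galectin-related protein, had 7, 7 and 6 counts in Scgb3a1, Sftpc and other wells, too few for a call in any pair. S100a16, Anxa11 and Lgals8 passed 2-fold in no pair in which they were measured. S100a4 and Lgals1, both abundant in mesenchymal cells and leukocytes, had 1 count each in all kept wells, and S100a5, S100a7a, S100z, Anxa10, Anxa13, Lgals2 and Lgals7 had 0.

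**Figure D5:**
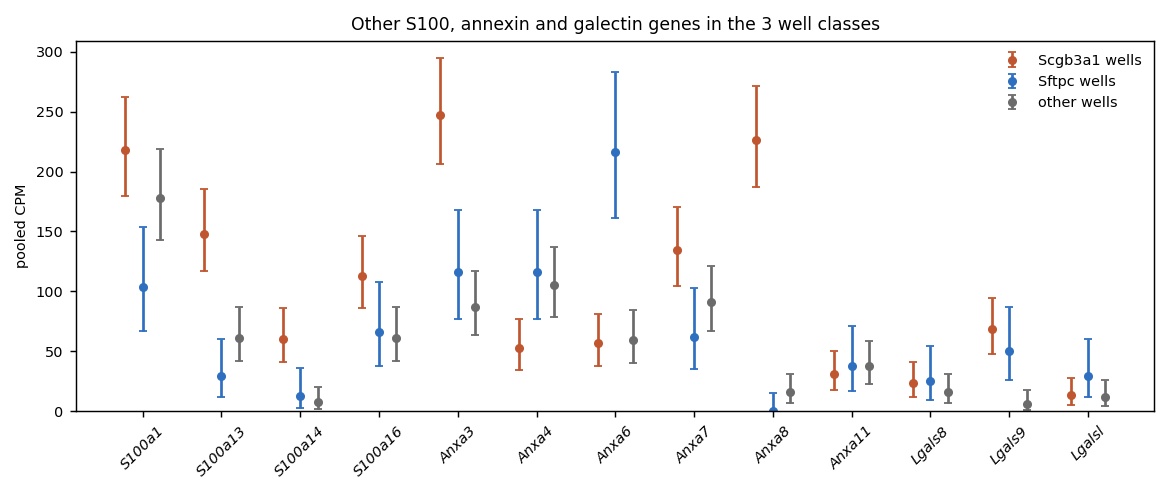
Pooled CPM (linear axis) with exact 95% Poisson intervals of the 13 other S100, annexin and galectin genes with at least 20 counts in kept wells, in Scgb3a1 wells, Sftpc wells and other wells. Anxa3 and Anxa8 are highest in Scgb3a1 wells, and Anxa6 is highest in Sftpc wells at 216 CPM.

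Of 18 listed partners, receptors and targets of the members, 7 were measured between Scgb3a1 and other wells, 5 between Sftpc and other wells and 6 between Scgb3a1 and Sftpc wells. In these pairs 0, 2 and 3 were higher, beside 8.13%, 17.4% and 13.2% of all measured genes. In each pair 1 was lower, beside 9.24%, 9.68% and 19.7% of all measured genes. Ager, the receptor RAGE that binds S100 proteins and is also an alveolar type 1 (AT1) marker, was at 7.79 CPM in Scgb3a1 wells, 951 CPM in Sftpc wells and 154 CPM in other wells. It was 6.16-fold higher in Sftpc than in other wells (4.75 to 8.07) and lower in Scgb3a1 wells than in both, at -4.31 against other wells and -6.93 against Sftpc wells. The 8 AT1 markers, Ager included, summed to 629 CPM in Scgb3a1 wells, 1749 CPM in Sftpc wells and 711 CPM in other wells. Ager itself gave 229 of the 421 counts of this sum in Sftpc wells, and the remaining markers did not share 1 order. Aqp5 and Emp2 were highest in Sftpc wells, as were Rtkn2 and Akap5 on at most 8 counts per class. Pdpn was highest in Scgb3a1 wells (226 CPM, against 0 CPM in Sftpc wells), and Hopx and Clic5 in other wells. The part of AT1 RNA in the Ager level was not tested. Cd36, a scavenger receptor that takes up fatty acids and binds S100A8 with S100A9, was at 522, 719 and 263 CPM in Scgb3a1, Sftpc and other wells, 2.73-fold higher in Sftpc than in other wells.

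Against Sftpc wells, Scgb3a1 wells were higher in 3 of the 6 measured partners: Ahnak, the large scaffold that the annexin A2 and S100A10 complex binds, 2.35-fold (1.83 to 3.05), Lgals3bp, a secreted galectin-3 ligand, 3.01-fold (1.35 to 7.92), and Cacybp, the calcyclin-binding protein, 4.92-fold (1.20 to 43.3) on 21 counts against 2. Against other wells none of these passed 2-fold in Scgb3a1 wells, and the lower call there was Ager. Atp2b1, a plasma membrane calcium pump, and Pla2g4a, cytosolic phospholipase A2, passed 2-fold in no pair in which they were measured. Lgals3bp was lower in Sftpc than in other wells, at -1.29 (-2.71 to -0.10). Of receptors for the members, Fpr1, a receptor of annexin A1, had 0 counts in kept wells, Fpr2 had 1 and Tlr4, a receptor of S100A8 with S100A9, had 18. Of genes of calcium handling that go with S100g in intestine, Vdr, the vitamin D receptor, had 14 counts, the calcium channel Trpv6 had 5 and Trpv5 had 0.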

How the data were processed

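Spike-in RNA was added to each lysed cell and cDNA was primed from oligo(T) carrying molecular barcodes, per the labels' protocols. The submitters' processing notes name STAR, with no version, and mm10. Not given in the sources used here: annotation, counter, use of strand and any collapsing of barcodes. The authors deposited raw whole-number counts, 1 row per gene symbol. If barcodes were not collapsed, PCR copies were counted separately and the intervals are too narrow.

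From these counts, wells were summed per class, and levels, shares and ratios were computed with Python 3.11.15, numpy 2.4.6, pandas 2.3.3 and scipy 1.17.1, with intervals at 95%. For 0 counts the upper limit was set at 3 counts or wells. No p-value was computed, because all wells are 1 sample. Doublets were not called. TMM factors came from edgeR 4.0.16 in R 4.3.3 and scaled class sums only. Thinning drew 3151 counts per well without replacement, leaving 74, 44 and 86 wells of Scgb3a1, Sftpc and other wells. The ratio calls were run on simulated Poisson counts of class sums, without variation between wells and without PCR copies. That run could therefore not check the calls under such variation. Of the symbols, 24241 matched GENCODE M21, and copies of members were sought with BLAST 2.17.0. Promoters came from the RefSeq table.

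Named genes were the 10 members, family and partner genes with at least 20 counts in kept wells, and the 3 most correlated genes of each member with at least 100 counts. Others were named after their values were seen. The members and lists were chosen with earlier results of these data known. Alternatives changed the limits, scaling, weighting and wells kept. The sets of 96 columns and the step without well 70 were added after seeing the data.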

Additional observations from a re-analysis of the deposited data

Results flagged for a closer look

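In 2 sorted wells of lower total, S100a8 and S100a9 were found although the kept wells held none. Well 263 held 43 counts of the 2 genes together, which was 9.29% of its total, and well 278 held 69 counts, which was 13.3%. Both exceed the 0 counts of the 2 negative control wells and the limit of 3 counts, and the report compares no class that contains these wells. Leukocyte markers, with 10 counts in these 2 wells and 0 in all other wells, go with them. Both wells are in the last set of 96 columns.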

How the results depend on the processing

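Over the 3 pairs, 14 ratios were called, and 9 of them stayed at least 2-fold in the same direction under every alternative that gave a value. The other 5 fell short in 13 of 230 alternative values in all, and 0 of 378 alternative log2 ratios reversed a call. Without ciliated-marker wells S100a6 in Sftpc over other wells was -0.72 and S100a11 -0.95. Above 5000 counts S100a11 was -0.55 in Sftpc over other wells and 0.55 in Scgb3a1 over Sftpc wells. Without set 2, Anxa1 in Scgb3a1 over other wells was 0.68, and S100a11 was -0.96 and 0.78 in the 2 pairs just named. Within set 1 these 3 values were 0.81, -0.43 and 0.38. Within set 3, S100a6 in Scgb3a1 over other wells was 0.95, Anxa1 0.52, and S100a11 in Scgb3a1 over Sftpc wells 0.80. The cause was not tested. The count of called members stayed within 1.5 times the main count in 57 of 60 alternatives: Sftpc over other wells gave 3 without ciliated-marker wells and 3 within set 2, against 5, and Scgb3a1 over other wells gave 1 within set 3, against 4. S100a8 and S100a9 summed to 0 counts in kept wells, 112 in wells of lower total, 112 in all sorted wells and 43 without the well of most counts.

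TMM scaling moved the median log2 ratio of all measured genes to 0.18 in Scgb3a1 over Sftpc wells, against -0.20 without it, and to -0.14 in Sftpc over other wells, against 0.18. Higher genes were then 60.8% and 44.2% of all calls in these pairs, against 40.1% and 64.3% by plain totals. Without Scgb1a1, Scgb3a1, Sftpc and Rn45s in the totals the share was 53.1% in Sftpc over other wells. No called member changed direction under either scaling, and TMM added Anxa2 in Scgb3a1 over other wells and over Sftpc wells. Of 48 alternative shares of wells, at equal depth or with at least 3 counts, 39 moved by more than their interval. No paired analysis was possible because a well number only names a well and no test across samples was run.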
